A study of Homo sapiens with 3 samples.

Results

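The proteasome subunit genes of the cholangiocarcinoma line KKU-213 were followed across 3 RNA libraries. They were taken by symbol: every gene of the PSMA, PSMB, PSMC, PSMD, PSME, PSMF and PSMG series on a main chromosome with at least 1 FPKM in 1 library, leaving out the immunoproteasome genes PSMB8, PSMB9 and PSMB10. FPKM counts fragments per kilobase of transcript, scaled to the mapped fragments of the library, so levels of different genes can be compared per length. Of 58892 gene IDs, 46 matched by symbol and 44 passed the level. PSMA8 and PSMB11, known from testis and thymus, were listed at 0 FPKM in every library and stayed out. The lowest entry inside the threshold was a second gene ID that carries the symbol PSMD9, with 3.54 FPKM in L5, 2.26 FPKM in HG and 4.48 FPKM in NG. The 44 gene IDs stand for 43 symbols on 17 chromosomes.

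KKU-213 is an established human line of intrahepatic cholangiocarcinoma, which arises from bile duct cells within the liver, and KKU-213L5 is known as its highly metastatic subline. The L5 library is KKU-213L5 in DMEM medium with 25 mM glucose, the HG library is KKU-213 in the same medium with 25 mM glucose, and the NG library is KKU-213 in DMEM with 5.6 mM glucose. All cells were past passage 5, grew with fetal bovine serum and antibiotics, and were harvested when confluent. Each group is 1 library, so no difference below has a replicate check, no p-value is given, and each error covers counting alone. HG against NG differs in glucose, L5 against HG in the line, and L5 against NG in line and glucose together, which cannot be told apart.

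The proteasome is the large protease of nucleus and cytoplasm that unfolds proteins tagged with ubiquitin and cuts them into peptides. Its barrel-shaped core is built of rings of alpha subunits (PSMA genes) around rings of beta subunits (PSMB genes), of which PSMB5, PSMB6 and PSMB7 carry the cutting sites. A cap of ATPases (PSMC genes) and non-ATPase subunits (most PSMD genes) recognises, deubiquitinates and feeds in the substrate, while PSME proteins are alternative activators and PSMG proteins help to assemble the alpha ring. Every particle needs its subunits in fixed numbers, and the genes are known to be expressed together, under factors that include NFE2L1 (NRF1), and cancer cells with high protein turnover depend on them.

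The promoters below belong to some of the members whose levels differed between libraries. PSMA5, PSMD5 and PSMD6 differed between L5 and HG, and the activator genes PSME1 and PSME2, which lie close together, between HG and NG. Other members had larger ratios in size than some of these. They were PSMG4 and PSMB1 beside PSMD6 in L5 against HG, and PSMB6 and PSMC5 beside PSME2 in HG against NG. For PSMB1 and PSMB6 no promoter was available. Each line gives the 250 bases before the annotated start, 5′ to 3′ on the gene's strand, from RefSeq on GRCh38.p14. The windows are chr1:109426449-109426698 on the minus strand, chr9:120842923-120843172 on the minus strand, chr3:64023495-64023744 on the minus strand, chr14:24135944-24136193 on the plus strand and chr14:24146611-24146860 on the minus strand. Capitals mark matches on either strand to 4 motifs: the antioxidant response element core TGACNNNGC, the CCAAT box, the ETS core CCGGAAG and the interferon-stimulated response element core, which is GAAA, any 2 bases, and GAAA again.
PSMA5: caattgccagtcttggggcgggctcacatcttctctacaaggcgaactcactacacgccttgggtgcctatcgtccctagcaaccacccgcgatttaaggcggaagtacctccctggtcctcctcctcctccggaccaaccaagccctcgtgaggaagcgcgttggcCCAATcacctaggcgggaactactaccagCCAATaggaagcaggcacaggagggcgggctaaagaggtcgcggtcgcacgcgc
PSMD5: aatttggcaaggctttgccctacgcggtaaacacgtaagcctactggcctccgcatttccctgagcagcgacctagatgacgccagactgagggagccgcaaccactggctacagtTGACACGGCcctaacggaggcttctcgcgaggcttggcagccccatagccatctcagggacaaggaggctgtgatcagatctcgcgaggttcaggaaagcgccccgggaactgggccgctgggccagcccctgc
PSMD6: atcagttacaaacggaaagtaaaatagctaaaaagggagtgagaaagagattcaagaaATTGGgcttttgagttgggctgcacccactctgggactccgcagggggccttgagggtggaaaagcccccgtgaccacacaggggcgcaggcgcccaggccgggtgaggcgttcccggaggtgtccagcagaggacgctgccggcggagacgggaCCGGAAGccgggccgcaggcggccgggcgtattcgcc
PSME1: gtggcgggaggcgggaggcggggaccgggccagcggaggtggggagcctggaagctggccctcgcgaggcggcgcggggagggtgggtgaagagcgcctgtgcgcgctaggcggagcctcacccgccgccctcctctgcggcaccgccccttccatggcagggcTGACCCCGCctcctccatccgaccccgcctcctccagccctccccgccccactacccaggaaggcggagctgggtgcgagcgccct
PSME2: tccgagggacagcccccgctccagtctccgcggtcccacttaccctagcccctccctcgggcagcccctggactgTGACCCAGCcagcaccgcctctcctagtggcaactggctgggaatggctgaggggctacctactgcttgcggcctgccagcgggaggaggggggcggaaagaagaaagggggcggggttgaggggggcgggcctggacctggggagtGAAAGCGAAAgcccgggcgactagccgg

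PSMA5 held 2 CCAAT boxes, PSMD5 an antioxidant response core, PSMD6 an ETS core and a CCAAT box on the opposite strand, and PSME1 and PSME2 an antioxidant response core each. In PSME2 the interferon-stimulated core lay 28 bases before the start, and in PSME1 a match on the opposite strand began 6 bases after it, outside the printed bases. The table held 37 of the 43 symbols, without PSMA7, PSMB1, PSMB6, PSMB7, PSMD4 and PSMG3. In windows of 300 bases, 50 of them after the start, the antioxidant response core occurred for 14 of the 37 members, which is 37.8%, against 16.1% of 27305 genes. The ETS core also occurred for 14 members, 37.8%, against 12.2% of genes. The CCAAT box was found for 18 members, 48.6%, against 39.7% of genes, and the interferon-stimulated core for 5 members, 13.5%, against 4.38%. Each motif was counted on its own, on both strands, and matches to different motifs can overlap. A match is a run of letters and does not show that a factor binds there.

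The libraries held about 68700000 fragments in L5, 76000000 in HG and 47100000 in NG. A median member had 10094 fragments in L5, 11641 in HG and 7996 in NG. Only the second PSMD9 entry was thin, with 131, 94 and 120 fragments in L5, HG and NG. Of 8 bile duct cell markers, 7 in L5, 7 in HG and 6 in NG reached 1 FPKM, led by KRT7 with 789, 784 and 992 FPKM, while CFTR was below 0.1 FPKM in each. Hepatocyte markers reached 1 FPKM in 1 of 7 genes, fibroblast markers in 1 of 7, and leukocyte and endothelial markers in 2 of 7 in L5 and HG and 1 of 7 in NG. ALB, HNF4A, PTPRC and CDH5 were at or near 0. Some markers were expressed at levels that differed between libraries. KRT19 had 567 FPKM in L5, 477 FPKM in HG and 280 FPKM in NG, and SOX9 had 9.41, 4.44 and 10.4 FPKM in that order, both of bile duct cells, as is GGT1 with 1.97, 2.04 and 0.39 FPKM. Of the other bile duct markers, KRT18 had 403, 321 and 421 FPKM, KRT8 430, 361 and 397 FPKM and EPCAM 270, 238 and 298 FPKM in L5, HG and NG. SERPINA1, which made up nearly all of the hepatocyte sum, had 36.5 FPKM in L5, 27.8 FPKM in HG and 77.8 FPKM in NG. ACTA2 had 2.10, 2.82 and 7.76 FPKM, CD14 1.83, 3.15 and 0.90 FPKM and CD68 16.1, 13.2 and 12.5 FPKM in L5, HG and NG. The summed marker levels were 36.5, 27.8 and 77.8 FPKM for hepatocytes, 3.19, 3.56 and 8.39 FPKM for fibroblasts, and 18.1, 16.5 and 13.6 FPKM for leukocytes and endothelium, in L5, HG and NG in that order. Their part in the results was not tested.

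As a class, the members were abundant next to a typical gene of these cells. The 43 members measured in every library summed to 5555 FPKM in L5, 5897 FPKM in HG and 6499 FPKM in NG. That is 1.04%, 1.10% and 1.10% of all gene FPKM in these libraries. A median member stood at 96.7 FPKM in L5 and 112 FPKM in HG, whereas a median gene above 1 FPKM stood near 10.0 and 10.2 FPKM. The order of the members hardly differed between libraries: across the 43 genes, which share libraries and are not independent, log2 FPKM correlated with r = 0.98 between HG and NG, 0.99 between L5 and HG and 0.99 between L5 and NG. NG had the highest FPKM of the 3 libraries for 29 of the 43 members, HG for 9 and L5 for 5. L5 had the lowest for 26, HG for 15 and NG for 2. This order was not counted over all genes, of which 61.5% were lower in HG than in NG and 61.9% lower in L5 than in NG.

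**Figure D1:**
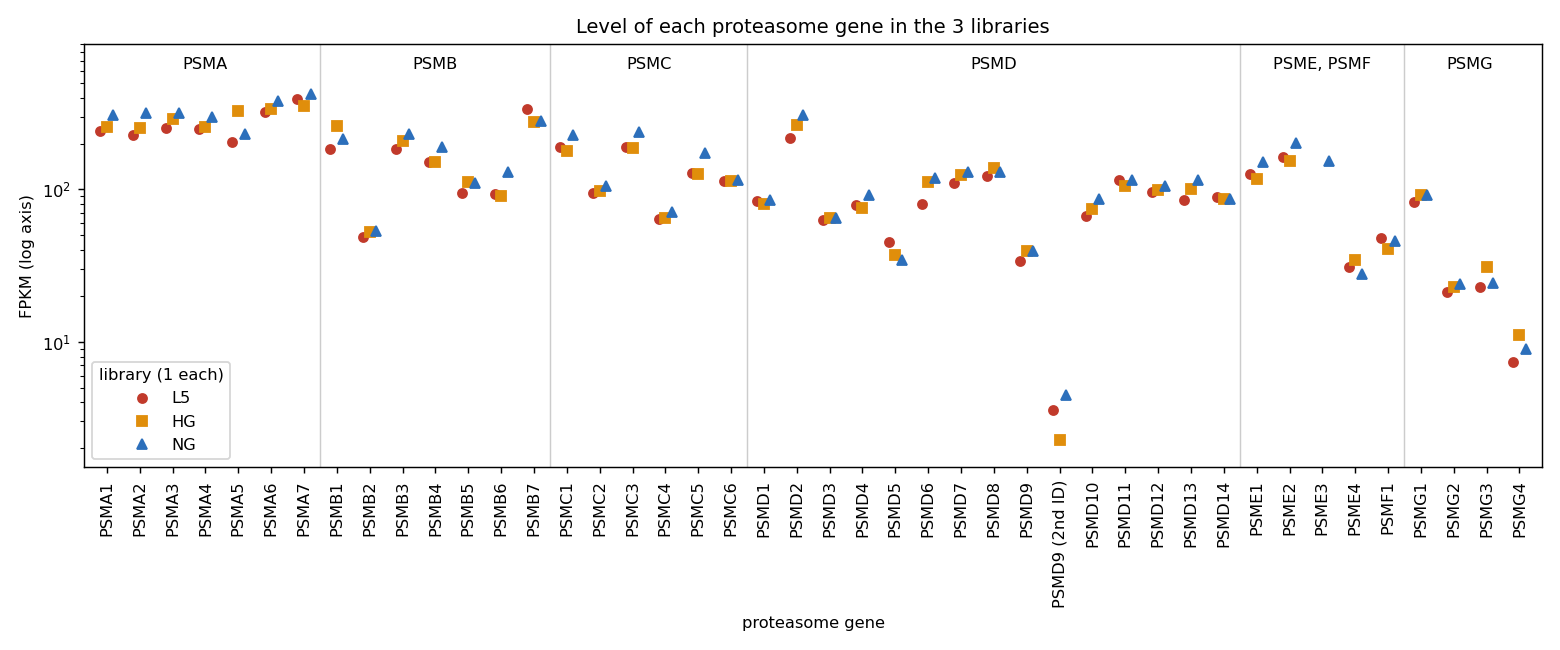
FPKM of each proteasome gene on a log axis in the L5 (circles), HG (squares) and NG (triangles) libraries, 1 library each, grouped by gene series. PSMA genes sit in a narrow band of 205 to 424 FPKM, PSMB genes spread from 48.4 to 335 FPKM, and PSMG4 and the second PSMD9 entry are lowest. PSME3 has a value in NG alone.

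The alpha ring genes formed the most even group. PSMA7 was the most abundant member of all, with 392 FPKM in L5, 353 FPKM in HG and 424 FPKM in NG. PSMA6 followed with 323 FPKM in L5, 338 FPKM in HG and 380 FPKM in NG. PSMA3 had 253, 290 and 317 FPKM in L5, HG and NG. PSMA1, PSMA2 and PSMA4 lay close together, and each was lowest in L5 and highest in NG. PSMA1 read 243 FPKM in L5, 257 FPKM in HG and 306 FPKM in NG. PSMA2 read 228 FPKM in L5, 251 FPKM in HG and 315 FPKM in NG, and PSMA4 read 250, 255 and 296 FPKM in the same order. PSMA5 broke this pattern, with 205 FPKM in L5 (interval 202 to 212), 325 FPKM in HG (322 to 335) and 233 FPKM in NG (226 to 242). It was the lowest alpha gene in L5 and NG and the third highest in HG. Highest over lowest alpha gene was 1.91 in L5, 1.40 in HG and 1.82 in NG.

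The beta ring genes spread more widely, although the ring also needs its subunits in equal numbers. PSMB7, the trypsin-like cutting subunit, had 335 FPKM in L5 (332 to 345), 276 FPKM in HG (273 to 285) and 283 FPKM in NG (276 to 293). PSMB5, the chymotrypsin-like subunit that clinical proteasome inhibitors bind, had 94.7 FPKM in L5, 112 FPKM in HG and 110 FPKM in NG. PSMB6, the caspase-like subunit, had 93.4 FPKM in L5 (89.7 to 97.7), 90.1 FPKM in HG (86.5 to 94.2) and 131 FPKM in NG (125 to 137). So PSMB7 was the most abundant of the cutting subunits in each library and the only one highest in L5. The non-cutting PSMB1 had 183 FPKM in L5, 261 FPKM in HG and 215 FPKM in NG. PSMB3 had 183, 208 and 231 FPKM and PSMB4 151, 152 and 189 FPKM in L5, HG and NG. PSMB2 was the lowest core gene, with 48.4 FPKM in L5, 52.7 FPKM in HG and 53.3 FPKM in NG. Highest over lowest beta gene was 6.91 in L5, 5.23 in HG and 5.30 in NG.

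The 6 PSMC genes encode the ATPase ring that unfolds the substrate. PSMC3 had 190 FPKM in L5, 188 FPKM in HG and 238 FPKM in NG. PSMC1 had 189, 180 and 226 FPKM, and PSMC5 128, 126 and 174 FPKM, in the same order of libraries. These 3 genes shared a pattern of near-equal levels in L5 and HG and a higher level in NG. PSMC6 had 114 FPKM in L5, 113 FPKM in HG and 114 FPKM in NG. PSMC2 had 94.5, 97.5 and 105 FPKM and PSMC4 64.1, 64.8 and 71.3 FPKM in L5, HG and NG. PSMC6 was thus the flattest of the ATPases, and PSMC4 the lowest in each library.

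Among the PSMD genes, PSMD2, which encodes a large scaffold of the base that docks ubiquitin-like proteins, was highest, with 218 FPKM in L5 (210 to 218), 264 FPKM in HG (256 to 267) and 307 FPKM in NG (297 to 310). Its scaffold partner PSMD1 was flat, with 83.6 FPKM in L5, 80.1 FPKM in HG and 85.0 FPKM in NG. The ubiquitin receptor PSMD4 had 78.5 FPKM in L5, 75.2 FPKM in HG and 91.5 FPKM in NG. PSMD14, the deubiquitinase of the lid, was also flat with 89.4 FPKM in L5, 86.0 FPKM in HG and 86.8 FPKM in NG. Of the structural lid genes, PSMD6 had 80.7 FPKM in L5 (78.3 to 83.5), 112 FPKM in HG (109 to 116) and 118 FPKM in NG (115 to 121). PSMD13 had 84.6, 101 and 115 FPKM in L5, HG and NG. Both were lowest in L5. PSMD7 read 109, 124 and 130 FPKM, PSMD8 123, 138 and 131 FPKM, and PSMD12 96.7, 98.5 and 105 FPKM, in L5, HG and NG. PSMD3 read 63.2, 65.3 and 64.9 FPKM and PSMD11 116, 105 and 115 FPKM in that order.

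Of the PSMD genes, 3 encode chaperones that help to assemble the base and leave the finished particle. PSMD5 had 45.04 FPKM in L5 (44.0 to 46.1), 37.0 FPKM in HG (36.1 to 37.9) and 34.3 FPKM in NG (33.2 to 35.4). PSMD10, also known as the oncoprotein gankyrin, had 67.3 FPKM in L5, 74.0 FPKM in HG and 86.2 FPKM in NG. PSMD9 had 33.7 FPKM in L5, 39.3 FPKM in HG and 39.6 FPKM in NG. PSMD5 alone of these was highest in L5 and lowest in NG, the reverse of PSMD10.

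PSME1 and PSME2 encode the activator that interferon induces and that opens the core without ubiquitin. PSME2 had 163 FPKM in L5 (160 to 170), 155 FPKM in HG (151 to 161) and 203 FPKM in NG (196 to 212). PSME1 had 125 FPKM in L5, 117 FPKM in HG and 152 FPKM in NG, with deposited intervals that lie below these values. The libraries thus took the same order for both genes, with HG lowest and NG highest. PSME4, a large nuclear activator, was lower, with 30.7 FPKM in L5, 34.5 FPKM in HG and 27.9 FPKM in NG. PSMF1, an inhibitor of the core in vitro, had 48.3 FPKM in L5, 40.8 FPKM in HG and 46.1 FPKM in NG. PSME3, the nuclear activator made of its own single subunit type, had 154 FPKM in NG, but in L5 and HG the authors' table gives its status as failed and lists it at 0. It enters no comparison. In NG its largest isoform share was 46.1% (ENST00000590720), followed by 27.8% (ENST00000293362).

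The assembly chaperones had the lowest median of the classes, 22.0 FPKM in L5, 27.0 FPKM in HG and 24.1 FPKM in NG. PSMG1 had 82.9 FPKM in L5, 92.4 FPKM in HG and 91.3 FPKM in NG. PSMG2, its partner, had 21.1 FPKM in L5, 23.0 FPKM in HG and 23.8 FPKM in NG. PSMG3 had 22.8 FPKM in L5, 30.9 FPKM in HG and 24.5 FPKM in NG, and its partner PSMG4 had 7.40 FPKM in L5, 11.1 FPKM in HG and 9.01 FPKM in NG. The pair PSMG3 and PSMG4 was highest in HG.

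Differences between libraries are given as log2 ratios of FPKM + 1, with a counting standard error taken from the deposited intervals. A size rule requires at least 1 on this scale in either direction, and a small fold rule at least 0.25 together with deposited intervals that do not overlap. The interval held the listed FPKM for 32 of 43 members in L5, 32 of 43 in HG and 33 of 44 in NG. The small fold rule used the interval bounds as deposited. For the counting standard error the interval width was rescaled as if centred on the listed FPKM. The comparisons share libraries: HG stands in HG against NG and in L5 against HG, and a high value in HG raises the first ratio and lowers the second.

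At 25 mM glucose, KKU-213 had slightly lower levels of most proteasome genes than at 5.6 mM, by an amount close to that of all genes. The median log2 ratio of HG against NG was -0.13 over 43 members, and -0.09 over all 13383 genes. Of the members, 33 were below 0, which is 76.7% against 61.5% of all genes, and 24 were below the all-gene median. No member passed the size rule, which 1.32% of all genes passed as higher in HG and 2.88% as lower. By the small fold rule 11 members were lower in HG, which is 25.6% of members against 24.8% of all genes. The rule found 4 members higher in HG, 9.30% against 12.9% of all genes. These shares are near the background or below it, so the counts alone do not set the members apart from other genes. The shares are not like for like: the median counting SE was 0.08 over all genes and 0.03 over members. The SD of the ratios was 0.47 and 0.24 in that order. The split depended on scaling: it was 5 higher and 4 lower with library medians set equal or on the TPM scale, 5 and 5 with upper quartiles set equal, 4 and 3 with the trend on transcript length removed, and 0 and 38 with levels set on the spike-in RNAs. The share of all genes called was not counted under these scalings, so the splits do not compare members with other genes. Spike-in scaling moved the median of all genes to -0.44 and that of the members to -0.54, so relative to other genes the members differed by -0.10 there and by -0.04 as deposited. Whether spike-in RNAs were added in equal amounts per cell or per RNA mass is not stated. Spike-in scaling is therefore an alternative only, here and below. In these bulk libraries fewer cells of a kind and less RNA per cell cannot be told apart.

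The 11 lower members came from every class but the PSMG genes. PSMB6 had the lowest ratio among members with deep counts, -0.53 ± 0.05 (counting SE). Its gene lies at chr17:4699439-4701790 on GRCh37, the build of the files. PSMC5 followed with -0.46 ± 0.03, and PSMC3 and PSMC1 had -0.34 ± 0.04 and -0.33 ± 0.02. PSME2 and PSME1, which lie close together at chr14:24612574-24616779 and chr14:24605367-24608176, had -0.39 ± 0.04 and -0.38 ± 0.04. Their promoters are among those printed above. The remaining lower members were PSMA2 (-0.32), PSMB4 (-0.31), PSMD4 (-0.28), PSMA7 (-0.26) and PSMA1 (-0.25). PSMB6, PSMC5 and PSME2 were called lower under each of the 5 other scalings. The cutting subunits therefore differed: PSMB6 was past the rule, while PSMB5 and PSMB7 had 0.03 ± 0.03 and -0.04 ± 0.03.

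The 4 members higher in HG were PSMA5 with 0.48 ± 0.03, PSMG3 with 0.33 ± 0.09, PSME4 with 0.30 ± 0.04 and PSMB1 with 0.28 ± 0.03. With spike-in scaling PSMG3, PSME4 and PSMB1 were at -0.07, -0.10 and -0.13. The second PSMD9 entry had the largest ratio in size, -0.75 ± 0.29, but its intervals overlap and it was not called.

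By class, the medians were -0.22 for PSMA, -0.23 for PSMC and -0.28 for PSME and PSMF, and these were below 0 under every scaling run. They were -0.04 for PSMB and -0.08 for PSMD, which turned to 0.06 and 0.01 with library medians set equal. The PSMG median was 0.15 and turned to -0.24 with spike-in scaling. The 6 PSMC genes were all below 0, from -0.46 for PSMC5 to -0.02 for PSMC6. Among PSMD genes the called one was PSMD4, and the highest was PSMD5 with 0.11 ± 0.03. The spread between members, with an SD of 0.24, was larger than the median counting SE of 0.03.

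**Figure D2:**
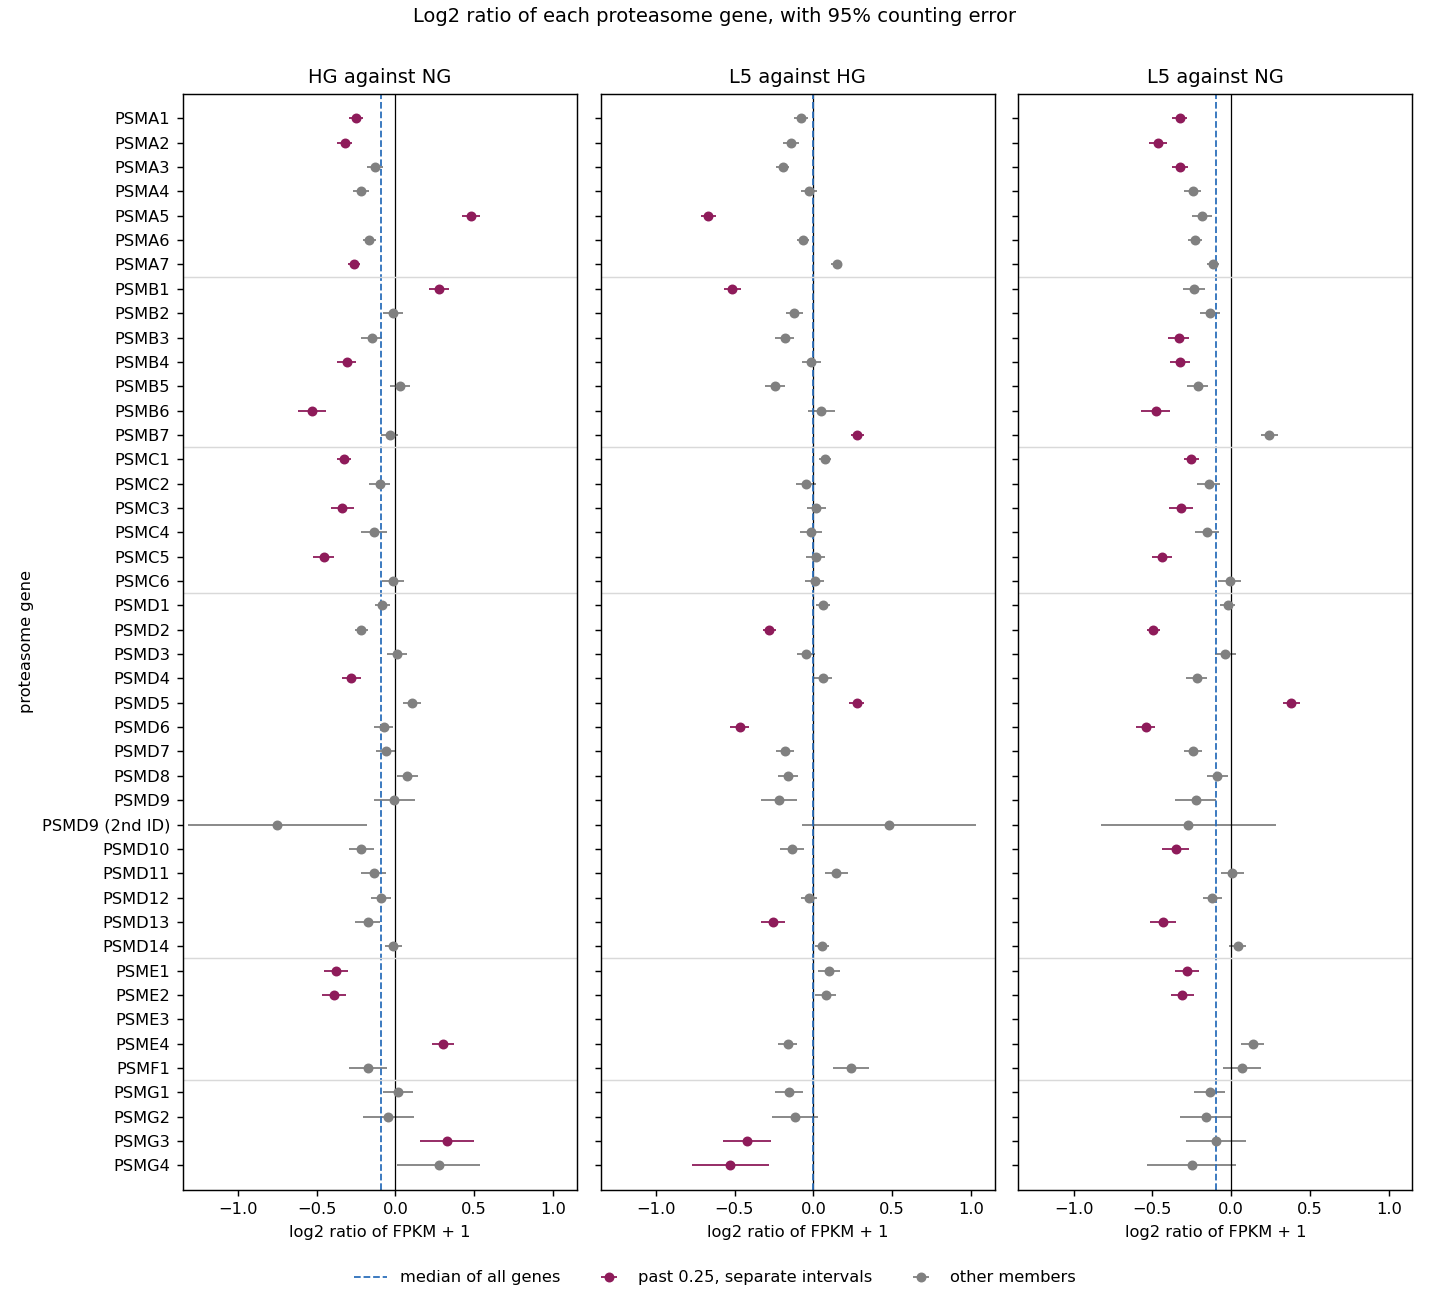
Log2 ratio of FPKM + 1 for each proteasome gene in HG against NG, L5 against HG and L5 against NG, with bars of 95% counting error, and a dashed line at the median of all genes. Coloured points passed 0.25 in size with separate intervals: 4 higher and 11 lower, 2 higher and 7 lower, and 1 higher and 15 lower. With spike-in scaling no coloured point stays above 0 except PSMA5 in HG.

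At 25 mM glucose, the subline had proteasome gene levels close to those of KKU-213, apart from a few members. The median log2 ratio of L5 against HG was -0.05 over 43 members and -0.01 over all 13129 genes. Below 0 were 27 members, which is 62.8% against 50.9% of all genes. No member passed the size rule, which 1.72% of all genes passed as higher and 0.51% as lower. By the small fold rule 7 members were lower in L5, 16.3% against 14.6% of all genes, and 2 were higher, 4.65% against 15% of all genes. The split was 3 higher and 6 lower with library medians set equal or on the TPM scale, 2 and 8 with upper quartiles set equal, 2 and 7 without the length trend, and 0 and 39 with spike-in scaling. Here too the share of all genes called under these scalings was not counted. Spike-in scaling placed the median of all genes at -0.36 and that of the members at -0.46. The shares are not like for like here either: the median counting SE was 0.07 over all genes and 0.03 over members. The SD between members was 0.23, and that over all genes 0.38.

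PSMA5 had the lowest ratio of all members in L5 against HG, -0.67 ± 0.02. PSMG4 had -0.53 ± 0.13, PSMB1 -0.51 ± 0.03, PSMD6 -0.47 ± 0.03 and PSMG3 -0.42 ± 0.08. PSMD2 and PSMD13 were nearest to the threshold among the lower members, with -0.28 ± 0.02 and -0.26 ± 0.04. Of these 7, PSMA5, PSMB1 and PSMG3 are the genes that stood higher in HG than in NG, a difference that rests on the same HG library. The 2 members higher in L5 were PSMB7 with 0.28 ± 0.02 and PSMD5 with 0.28 ± 0.02. With spike-in scaling they were at -0.14 and -0.13.

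The ATPase ring barely differed between the subline and KKU-213 at the same glucose. All 6 PSMC ratios lay between -0.04 for PSMC2 and 0.07 for PSMC1, and their SD was 0.04. The class median was 0.01, and turned to -0.01 with upper quartiles set equal and to -0.41 with spike-in scaling. PSMA had a median of -0.08, PSMB of -0.12 and PSMD of -0.05. The 4 PSMG genes were all below 0 with a median of -0.29, and these 4 class medians were below 0 under every scaling run. PSME1, PSME2 and PSMF1 had 0.10, 0.08 and 0.24, and PSME4 had -0.16. The cutting subunits PSMB5 and PSMB6 had -0.24 ± 0.03 and 0.05 ± 0.04 beside 0.28 for PSMB7.

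The called members of L5 against HG lay mainly where their chromosome neighbours had the same shift. Chromosomes 3, 6, 9 and 15 and a stretch of chromosome 1 that reaches from its short arm past the centromere were set apart because earlier results of these data showed shifts there, so this is a description. They carry 8 of the 43 members, of which 7 were called, against 48.3% of the 2658 other genes there. Elsewhere 2 of 35 members were called, 5.71%, against 24.9% of 10428 other genes. The members called outside were PSMD13 and PSMG3. Within 5 Mb of PSMA5, at chr1:109941653-109969062, the median ratio of 60 other genes was -0.41, below the median of -0.06 for the whole stretch. PSMB1, at chr6:170844205-170862429, had 15 neighbours with a median of -0.36. PSMG4, at chr6:3231637-3303607 on the same chromosome, had 35 with -0.28. PSMD6 and PSMD2, at chr3:63996225-64009658 and chr3:184016497-184026842 on chromosome 3, had 13 and 54 neighbours with medians of -0.26 and -0.28. PSMB7 and PSMD5, at chr9:127115745-127177723 and chr9:123577774-123605229 on chromosome 9, had 102 and 45 with 0.28 and 0.20. PSMA4, the eighth, on chromosome 15, was at -0.03 beside neighbours at 0.02.

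The other comparisons did not show this split. In HG against NG 2 of the 8 members there were called, 25% against 46.6% of other genes there, and 13 of 35 elsewhere, 37.1% against 35.4%. In L5 against NG 3 of the 8 were called, 37.5% against 49.3%, and 13 of 35 elsewhere, 37.1% against 33.1%. Some members of HG against NG still lay on the same side of 0 as their neighbours. The neighbours of PSMA5 had a median of 0.31 and those of PSMB1 0.22, beside ratios of 0.48 and 0.28 for the members themselves. Neighbours of PSMG4 had 0.33, and PSMG4 had 0.27 with overlapping intervals. The other 2 higher members, PSMG3 and PSME4, had neighbours at -0.11 and -0.14, on the other side of 0. PSMD5 on chromosome 9 had 0.11 beside neighbours at -0.06. The remaining members set apart by chromosome, PSMB7, PSMD2, PSMD6 and PSMA4, had -0.04, -0.22, -0.08 and -0.22. Their neighbours had -0.33, -0.17, -0.22 and -0.13 in that order. PSMB6, PSMC5, PSME1 and PSME2 were each lower than their neighbours, whose medians were -0.11, -0.20, -0.21 and -0.21. Across the 43 members the ratio correlated with the neighbours' median with r = 0.49 in HG against NG, 0.70 in L5 against HG and 0.62 in L5 against NG, and Spearman's rho was 0.27, 0.48 and 0.50. Members share libraries and neighbours, so these values describe the genes.

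**Figure D3:**
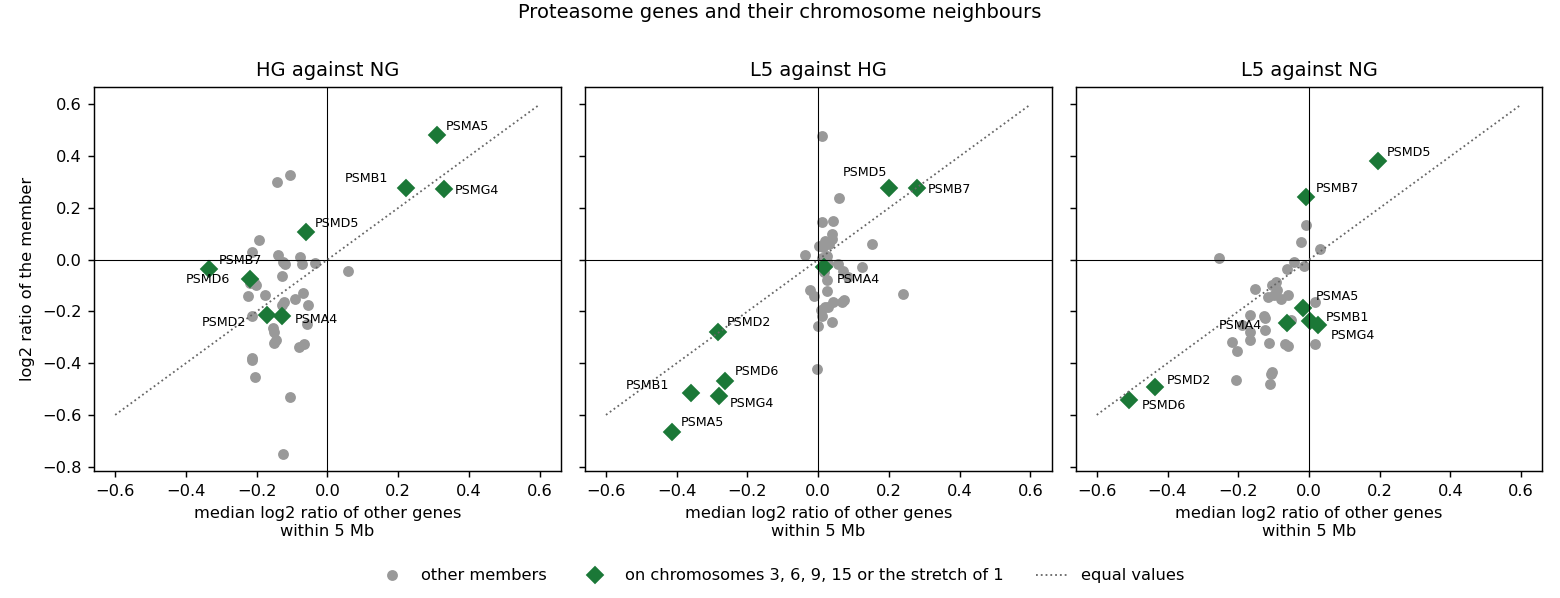
Log2 ratio of each proteasome gene against the median log2 ratio of the other genes within 5 Mb of it, for HG against NG, L5 against HG and L5 against NG. Diamonds are the 8 members on chromosomes 3, 6, 9 and 15 and on the stretch of chromosome 1, and the dotted line marks equal values. In L5 against HG each diamond other than PSMA4 lies on the same side of 0 as its neighbours, from PSMA5 at -0.67 to PSMB7 at 0.28, while most circles have neighbours near 0.

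With line and glucose differing together, the members stood further below the other genes. The median log2 ratio of L5 against NG was -0.23 over 43 members and -0.10 over all 13474 genes. Below 0 were 37 members, which is 86.0% against 61.9% of all genes, and 33 were below the all-gene median. No member passed the size rule, which 1.89% of all genes passed as higher and 2.03% as lower. By the small fold rule 15 members were lower in L5, 34.9% against 23.9% of all genes, and 1 was higher, 2.33% against 12.5%. As in HG against NG, these shares are not like for like. The median counting SE was 0.08 over all genes and 0.03 over members, and the SD of the ratios 0.47 and 0.19. The split was 2 higher and 7 lower with library medians set equal, 3 and 6 on the TPM scale, 2 and 10 with upper quartiles set equal, 2 and 6 without the length trend, and 0 and 43 with spike-in scaling. With spike-in scaling the median of all genes was -0.80, that of the members -1.05, and 23 members passed the size rule as lower. Shares of all genes under these scalings were not counted, so these numbers do not set the members apart from other genes.

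The lower members of L5 against NG were again spread over the particle. PSMD6 had -0.54 ± 0.03 and PSMD2 -0.49 ± 0.02, on a chromosome where 765 other genes had a median of -0.43. PSMB6 had -0.48 ± 0.05, PSMA2 -0.46 ± 0.03, PSMC5 -0.44 ± 0.03, PSMD13 -0.43 ± 0.04 and PSMD10 -0.35 ± 0.04, with neighbours between -0.21 and -0.10. The remaining 8 were PSMB3, PSMA1 and PSMA3 with -0.33, PSMC3 and PSMB4 with -0.32, PSME2 with -0.31, PSME1 with -0.28 and PSMC1 with -0.25. PSMD5 was the 1 higher member, with 0.38 ± 0.03, and was at -0.45 with spike-in scaling. PSMB7 had 0.24 ± 0.03, just under the threshold. Class medians were -0.25 for PSMA, -0.24 for PSMB, -0.20 for PSMC, -0.22 for PSMD and -0.15 for PSMG, below 0 under every scaling run, and -0.11 for PSME and PSMF, which turned to 0.02 on the TPM scale.

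Called in at least 1 comparison were 24 of 43 members, 55.8%, against 56% of the 12763 genes tested in all 3, and 19 members were called in none. The share is that of the background. The uncalled members include the deubiquitinase PSMD14, whose ratios were -0.01 in HG against NG, 0.05 in L5 against HG and 0.04 in L5 against NG. PSMC6 had -0.02, 0.01 and -0.01 in the same order of comparisons. PSMD1 had -0.08, 0.06 and -0.02, and PSMD3 0.01, -0.05 and -0.04. The cutting subunit PSMB5, the beta ring gene PSMB2 and the chaperones PSMG1 and PSMG2 were also uncalled. Without replicates a ratio near 0 does not show that the level was equal.

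Transcript forms of the members hardly differed between libraries. At 10 FPKM or more in every library, 39 of 41 members had the same leading isoform, and no isoform share moved by 20 points. PSMC5 and PSMD11 were the exceptions, each with several isoforms of similar share. The leading isoform of PSMD11 was ENST00000469475 in L5, with 33.2% of the gene, and ENST00000261712 in HG and NG, with 33.5% and 34.3%. The widest difference was that of the leading PSMC1 isoform, ENST00000261303, with 81.0% in L5, 88.3% in HG and 73.3% in NG. PSMC1, PSME2 and PSMD10 also share sequence with pseudogenes, so their levels are uncertain. Of 25 pseudogenes named after members, chromosome Y left out, 4 reached 1 FPKM. PSMC1P1 had 35.0 FPKM in L5, 36.1 FPKM in HG and 42.6 FPKM in NG, PSMC1P5 had 10.9, 13.1 and 20.5 FPKM, and PSME2P2 had 4.21, 3.56 and 6.24 FPKM. PSMD10P2 was lowest of the 4, with 1.75, 1.46 and 1.44 FPKM in L5, HG and NG.

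The immunoproteasome genes, which replace the cutting subunits after interferon, were low beside them. PSMB10 had 11.7 FPKM in L5, 10.9 FPKM in HG and 16.9 FPKM in NG. PSMB9 had 3.74 FPKM in L5, 4.30 FPKM in HG and 6.69 FPKM in NG, and PSMB8 had 4.59, 4.94 and 5.17 FPKM. In HG against NG, PSMB10 had -0.59 and PSMB9 -0.54, both called lower, and PSMB8 had -0.05. That is 66.7% of 3 genes lower, against 24.8% of all genes. PSME1 and PSME2 of the interferon-induced activator were also called lower, while the activator gene PSME4 was called higher with 0.30. A common cause was not tested. In L5 against HG none of the 3 was called, against 14.6% of all genes lower and 15% higher. In L5 against NG, PSMB9 had -0.70 and PSMB10 -0.49, which is 66.7% lower against 23.9% of all genes.

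Of 12 genes for subunits and associated proteins with other symbols, 3 were called higher and 3 lower in HG against NG. That is 25% each, against 12.9% and 24.8% of all genes, so the share of lower calls is that of the background. In L5 against HG 8.33% were higher and 8.33% lower, against 15% and 14.6%. In L5 against NG 8.33% were higher and 16.7% lower, against 12.5% and 23.9%. SHFM1, a small lid subunit, had 276 FPKM in L5, 238 FPKM in HG and 348 FPKM in NG, a ratio of -0.55. ADRM1, a ubiquitin receptor of the base, had 110 FPKM in L5, 135 FPKM in HG and 162 FPKM in NG. Its ratio was -0.26 in HG against NG, -0.29 in L5 against HG and -0.55 in L5 against NG, past the small fold rule in all 3 comparisons, although with library medians set equal the first was -0.17 and not past it. ZFAND5, a stimulator of the particle, had -0.47 in HG against NG and 0.56 in L5 against HG. It lies on chromosome 9, where genes other than members had medians of -0.22 and 0.23 in these comparisons. In HG against NG, KIAA0368, a scaffold that clamps core and cap, had 0.39 and the chaperone PAAF1 0.37. AKIRIN2, which carries the particle into the nucleus, had 0.28 there. Spike-in scaling put KIAA0368, PAAF1 and AKIRIN2 at -0.01, 0.00 and -0.12. KIAA0368 also lies on chromosome 9, and AKIRIN2 on chromosome 6, where genes other than members had a median of 0.24 in HG against NG. POMP, which guides beta ring assembly, had 155 FPKM in L5, 158 FPKM in HG and 177 FPKM in NG and was not called.

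Of the genes for factors known to drive proteasome transcription, NFE2L1 had 48.4 FPKM in L5, 44.6 FPKM in HG and 46.3 FPKM in NG and was called in no comparison. NFE2L2, the main factor of the antioxidant response, had 60.0 FPKM in L5, 52.7 FPKM in HG and 41.5 FPKM in NG, with ratios of 0.34 in HG against NG and 0.52 in L5 against NG, which turned to -0.06 and -0.32 with spike-in scaling. Of their small MAF partners, MAFG had -0.63 and MAFF -0.61 in HG against NG, and 0.34 and 0.89 in L5 against HG. Spike-in scaling turned MAFG to -0.05 in L5 against HG. In L5 against NG, MAFG had -0.29 and MAFF 0.28, both called. MAFK went the other way, with 0.15 in HG against NG and -0.13 in L5 against HG, and was called in no comparison. NGLY1, the glycanase that NFE2L1 needs for its activation, had 14.1 FPKM in L5, 22.4 FPKM in HG and 23.7 FPKM in NG. Its ratio was -0.63 in L5 against HG and -0.70 in L5 against NG, and it lies on chromosome 3. Over the 7 genes of this list, 28.6% were called lower and 14.3% higher in HG against NG, against 24.8% and 12.9% of all genes. In L5 against HG 14.3% were lower and 28.6% higher, against 14.6% and 15%. In L5 against NG 28.6% were called in each direction, against 23.9% lower and 12.5% higher. Factor activity was not measured.

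Among 15 ubiquitin genes and shuttle factors, UBB was the 1 gene called in HG against NG, so that 6.67% were lower and 0% higher, against 24.8% and 12.9% of all genes. UBB had 582 FPKM in L5, 618 FPKM in HG and 800 FPKM in NG and a ratio of -0.37. In L5 against HG the shuttle RAD23B had 0.31 and UFD1L 0.28. That is 13.3% higher and 0% lower, against 15% and 14.6% of all genes. In L5 against NG, RAD23B had 0.43 and UBQLN1 0.32 as higher, and UBB had -0.46. There 13.3% were higher and 6.67% lower, against 12.5% and 23.9% of all genes, so the shares are near the background or below it. With spike-in scaling the 4 higher values were between -0.53 and -0.11. RAD23B and UBQLN1 lie on chromosome 9.

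The members can be set beside other abundant assemblies. In HG against NG the median was -0.09 over 9 genes of the COP9 signalosome, a relative of the lid, 0.06 over 8 CCT chaperonin genes and -0.24 over 74 cytosolic ribosomal protein genes, beside -0.13 for the proteasome. In L5 against NG these medians were 0.04, -0.03 and -0.37, beside -0.23. In L5 against HG they were 0.10, -0.12 and -0.11, beside -0.05. The proteasome median thus lay between those of the chaperonin and the ribosome in HG against NG and in L5 against NG, but above both in L5 against HG. Signs near 0 depended on scaling: with spike-in scaling the COP9 and CCT medians of HG against NG were -0.48 and -0.36, and with library medians set equal they were 0.00 and 0.15. Of the COP9 genes in HG against NG, COPS2, on chromosome 15, had 0.69, COPS7B -0.59, COPS6 -0.39 and GPS1 -0.31. That is 11.1% of the 9 genes higher and 33.3% lower, against 12.9% and 24.8% of all genes. Of the chaperonin genes, TCP1, on chromosome 6 as PSMB1 is, had 0.52 in HG against NG and -0.53 in L5 against HG. CCT7 had -0.30 in HG against NG. So 12.5% of the 8 genes were called in each direction in HG against NG. In L5 against HG 12.5% were lower and 0% higher, against 14.6% and 15% of all genes. Of the ribosomal protein genes, 47.3% were lower by the small fold rule in HG against NG, 21.6% in L5 against HG and 68.9% in L5 against NG, beside 25.6%, 16.3% and 34.9% of the proteasome genes.

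**Figure D4:**
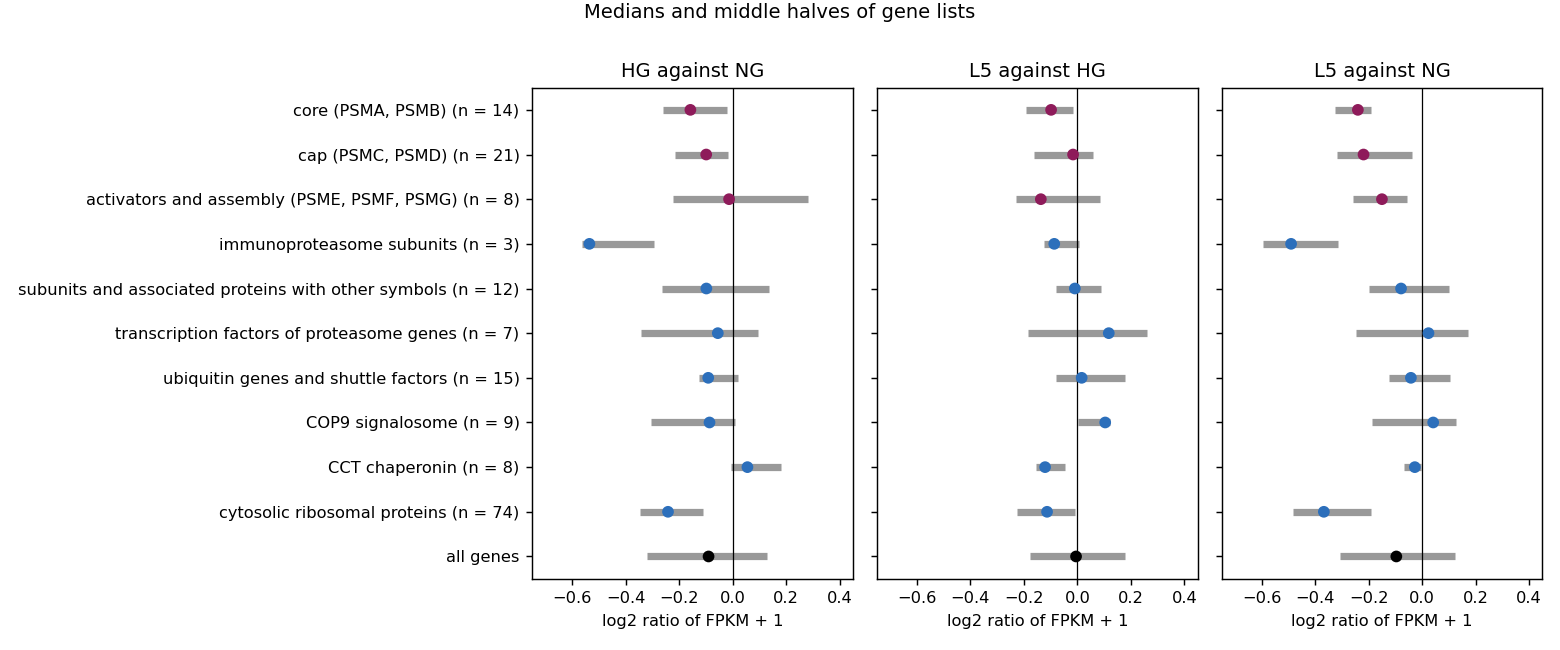
Median (points) and middle 50% (bars) of the log2 ratio of FPKM + 1 in the 3 comparisons, for the proteasome classes, related gene lists and all genes, with the number of genes measured. The core, cap and all-gene medians lie within 0.2 of each other in each comparison, and in HG against NG the 3 immunoproteasome genes have a median of -0.54 and the ribosomal proteins one of -0.24.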

How the data were processed

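Strand-specific poly-A libraries were sequenced as paired reads of 100 bases, per the labels, with 1 library per group. FPKM values per gene and isoform, with their interval bounds, were made by the authors with Cufflinks after alignment to GRCh37. BWA and TopHat are also named in the submitters' processing notes, and versions are not given in the sources used here. The deposited coverage signal (mean read depth per transcript, per the file headers), multiplied by transcript length and divided by 200 bases per fragment, gave fragments. Members and gene lists were chosen with earlier results of these data known. Spike-ins were left out and repeated gene IDs summed.

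Each comparison used gene IDs with status OK in both libraries, a longest isoform of at least 300 nt and at least 1 FPKM in 1 library. Log2 ratios used a pseudocount of 1, which understates changes of low genes. Counting errors came from the deposited intervals, taken as 95% intervals and rescaled to centre on the listed FPKM. Neighbours lay within 5 Mb. Every member is named. Values in every library were set for the cutting subunits, PSMD2, PSMD4 and PSMD14, each class's highest and lowest ratio, and ratios past 0.5. Of other lists, the members past the small fold rule were named, or else the highest and lowest, except that ribosomal protein genes were counted and not named. Alternatives were other pseudocounts, filters and scalings, isoform sums, main chromosomes alone, a length correction and leaving out shifted chromosomes. Scripts used Python 3.11.15, pandas 2.3.3, numpy 2.4.6 and matplotlib 3.10.9 and were tested on simulated data.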

Additional observations from a re-analysis of the deposited data

How the results depend on the processing

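With 1 library per group, counting error is the only error known, and intervals that leave out the listed FPKM for 11 of 43 members in L5 and HG make the separate-interval rule approximate. No paired analysis was possible because each group has 1 library. Leaving out a library was not possible either. Intervals centred on the FPKM, and leaving out the second PSMD9 entry, were chosen after seeing the data.

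In HG against NG the members' median of -0.13 was -0.039 with median scaling, -0.046 with upper quartile scaling, -0.026 on the TPM scale, -0.54 with spike-in scaling and -0.023 without the length trend, which also sets the all-gene median to 0. In L5 against NG the median of -0.23 was -0.13, -0.15, -0.10, -1.05 and -0.092 in that order, and in L5 against HG spike-in scaling gave -0.46. Calls by the small fold rule in HG against NG, 15 as reported, were 9 with median scaling, 9 on the TPM scale, 38 with spike-in scaling and 7 without the length trend. In L5 against NG, 16 as reported, they were 9, 9, 43 and 8. In L5 against HG, 9 as reported, they were 39 with spike-in scaling and 2 without the shifted chromosomes. The size rule, which found 0 members in each comparison, found 1 in HG against NG, 1 in L5 against HG and 23 in L5 against NG with spike-in scaling. Calls among all genes were not counted under these alternatives. Spike-in scaling reversed PSMB1 (-0.13), PSME4 (-0.10) and PSMG3 (-0.072) in HG against NG, PSMB7 (-0.14) and PSMD5 (-0.13) in L5 against HG, and PSMD5 (-0.45) in L5 against NG. The cause was not tested, and whether spike-in RNAs were added per cell or per RNA mass is not stated, so these reversals are an alternative only. Of 548 values of the 40 called ratios under the alternatives, 477 kept direction and call, 65 lost the call and 6 reversed.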
